A study of Mus musculus with 12 samples.

Results

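Respiratory complex I (NADH:ubiquinone oxidoreductase) takes electrons from NADH, passes them through a flavin and a chain of iron-sulfur clusters to ubiquinone, and pumps protons across the inner mitochondrial membrane. It is an L-shaped assembly of a matrix arm, made of the NADH-oxidising N module and the ubiquinone-reducing Q module, and a membrane arm with a proximal and a distal part. A set of core subunits carries out catalysis. Many accessory subunits, most of them small proteins encoded by nuclear genes with short transcripts, build the shell around the core. The heart is among the tissues richest in this complex because its contraction is fuelled by oxidative phosphorylation.

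The genes described here are 35 nuclear genes for complex I subunits, taken by name from the 55401 genes of the count tables. Hearts came from adult mice that were either WT or Rpl3l-/- (KO), and 2 fractions were sequenced, with 3 biological replicates in each of the 4 groups and 12 libraries in all. Rpl3l encodes a striated muscle paralog of the ribosomal protein Rpl3. In the method, called Nano-TRAP, ribosomes were pulled down from heart homogenate with an anti-HA antibody (IP) after cycloheximide, which halts elongating ribosomes, and total heart RNA was purified with TRIzol (Input), per the labels' protocols. IP RNA was purified on RNeasy columns, so fraction and purification cannot be told apart. The 4 groups are WT Input, KO Input, WT IP and KO IP; age beyond adult, sex, strain and the cells that carry the HA tag are not given in the sources used here. Both fractions were enriched for poly(A) RNA and sequenced as nanopore direct cDNA, in which a read can span a whole transcript. Beyond shared replicate numbers, nothing in the labels ties an Input library to an IP library of the same heart.

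Library totals ran from 356705 to 443177 counts in WT Input, 169359 to 291040 in KO Input, 549358 to 684762 in WT IP and 443525 to 710868 in KO IP, and 3 counts of a library total stand for 4.22 to 17.7 CPM (counts scaled to a common library size, here with TMM factors except for this floor). Rpl3l itself stood at 269 to 275 CPM in WT IP and 2.33 to 8.31 CPM in KO IP, and at 222 to 308 CPM in WT Input and 27 to 68.5 CPM in KO Input, so every KO library lay below every WT library of its fraction. Globin genes took between 1.70% and 17.3% of the counts of a library, most in WT IP replicate 2 (17.3%) and WT Input replicate 3 (13.8%). Summed cardiomyocyte markers lay between 56800 and 76500 CPM in all libraries, with Actc1 listed at 0 throughout.

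All 35 subunit genes were present in the tables, had counts in all 12 libraries and passed the filter on low counts, among 6596 genes tested. The lowest single value was 2 counts, for Ndufs1 in KO Input replicate 3. The 7 complex I genes of the mitochondrial chromosome, mt-Nd1 to mt-Nd6 and mt-Nd4l, were listed at 0 in every library, as were all 37 genes of that chromosome, and they were not analysed here. The nuclear subunits were short: the median transcript, taken as the principal transcript of GENCODE M21, was 861 bases long, from 419 (Ndufa1) to 2590 (Ndufs1), against 2760 bases over the 6591 tested genes with a length. Of the 35 genes, 22 had a transcript under 1000 bases, a class that holds 10.2% of the tested genes.

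To show what sequence lies before these genes, 4 stretches of 120 bases are given from RefSeq (build GRCm38.p6), upstream of both the RefSeq start and the GENCODE gene. Ndufb4 and Ndufb2 are the 2 genes with the smallest p between IP and Input in both genotypes, Ndufa11 holds a palindromic match for NRF1, a transcription factor known for nuclear genes of the respiratory chain, and Ndufb10 is a gene whose IP level was not below its Input level. Capitals mark matches to the NRF1 motif or the CCAAT box on either strand.
Ndufb4, chr16:37654454-37654573, minus strand: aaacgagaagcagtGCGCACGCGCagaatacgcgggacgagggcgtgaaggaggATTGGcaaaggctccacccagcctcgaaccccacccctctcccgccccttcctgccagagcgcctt
Ndufb2, chr6:39592445-39592564, plus strand: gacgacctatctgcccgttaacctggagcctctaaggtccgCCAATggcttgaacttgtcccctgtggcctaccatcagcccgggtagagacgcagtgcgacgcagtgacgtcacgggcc
Ndufa11, chr17:56717642-56717761, plus strand: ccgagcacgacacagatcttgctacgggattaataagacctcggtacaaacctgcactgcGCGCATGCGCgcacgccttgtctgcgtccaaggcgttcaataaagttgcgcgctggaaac
Ndufb10, chr17:24724479-24724598, minus strand: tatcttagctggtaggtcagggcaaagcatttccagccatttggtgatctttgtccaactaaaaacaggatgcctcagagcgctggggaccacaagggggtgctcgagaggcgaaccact

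Promoter windows, 250 bases before to 50 after the RefSeq start, were matched for 32 of the 35 genes and searched on both strands for 8 motifs. The full NRF1 motif was found in 7 of the 32 (21.9%): Ndufa5, Ndufa6, Ndufa8, Ndufa11, Ndufb4, Ndufs5 and Ndufs6. It occurred in 5.19% of the 27025 genes with a window and in 13.3% of the 5132 tested genes with one. The shorter NRF1 core GCATGCGC, which can overlap it, was in 3 (9.38%, against 3.05% and 6.68%). The YY1 motif AAGATGGCG was in 5 (15.6%, against 1.64% of all and 4.5% of tested genes), namely Ndufa9, Ndufc1, Ndufs4, Ndufs6 and Ndufs7, each time in the orientation of the gene and between 22 and 43 bases after the start. The ETS motif CCGGAAGT was in 1 (3.12%, against 4.31% and 9.92%) and the ERR motif CAAGGTCA in 1 (3.12%, against 1.76% and 1.19%). The CCAAT box was in 10 (31.2%, against 41.1% and 41.9%), the SP1 GC box GGGCGG in 15 (46.9%, against 38.2% and 72.1%) and the TATA box TATAAA in 4 (12.5%, against 15.7% and 9.06%). The search describes letters in these windows only.

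Transcripts of the 35 genes together made up a mean of 3.64% ± 0.261 (SD, n = 3) of the counts in WT Input and 3.88% ± 0.391 (SD, n = 3) in KO Input. In the ribosome-bound fraction they made up 3.02% ± 0.143 (SD, n = 3) in WT and 3.01% ± 0.296 (SD, n = 3) in KO. Every Input library, the lowest at 3.34%, lay above every IP library, the highest at 3.21%. Within WT Input the genes ranged from a mean of 112 CPM (Ndufs1) to 2348 CPM (Ndufb9), and 19 of 35 were above 1000 CPM.

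Levels between genes were compared as CPM per kb of transcript. On that scale Ndufa1, a small membrane subunit, was highest in WT Input at 4368 ± 375 CPM per kb (SD, n = 3), followed by Ndufa3, another small membrane subunit, at 3948 ± 290 and Ndufb9, a LYR-motif subunit of the distal arm, at 3335 ± 226. At the other end stood Ndufa9, a matrix-arm subunit with a dehydrogenase-like fold, at 352 ± 26.2 CPM per kb, Ndufs4, an accessory subunit of the N module whose loss gives a Leigh-like disease in mice, at 342 ± 26.8, and Ndufs1, the largest core subunit, at 43.1 ± 2.59. The highest and the lowest gene differed 101-fold, and 12.8-fold when Ndufs1 is left aside. Of the 34 neighbouring pairs in this order, 27 had overlapping libraries and 7 did not, among them Ndufa3 above Ndufb9, Ndufa10 above Ndufa9, and Ndufs4 above Ndufs1. The order depended on the division by length. In CPM, without it, Ndufb9 ranked 1, Ndufa5 2, Ndufa3 3 and Ndufa1 4 in WT Input. The range of the genes in CPM was 21.0-fold, or 4.62-fold without Ndufs1. Whether counts of these long reads grow with transcript length was not tested.

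**Figure D1:**
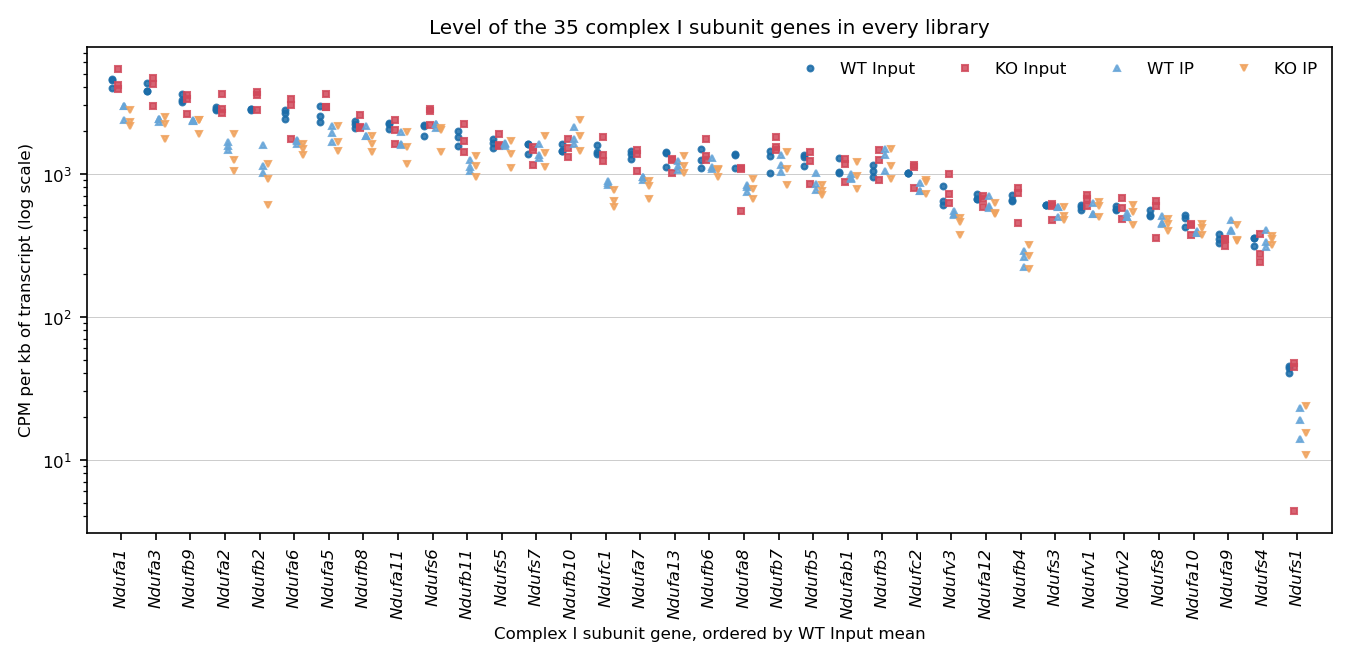
CPM per kb of transcript (log scale) of the 35 complex I subunit genes in each of the 12 libraries, ordered by the WT Input mean. Ndufa1 is highest at a WT Input mean of 4368 CPM per kb and Ndufs1 lowest at 43.1, and the KO Input square far below the others is Ndufs1 in replicate 3, which rests on 2 counts.

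Replicates of the subunit genes were close. The median coefficient of variation over the 35 genes ran from 7.40% in WT Input and 8.78% in WT IP to 17.3% in KO Input. Over all tested genes it was 22.6%, 19.8% and 30.2% in these groups. Many of the genes were at an extreme of their group in the same library. In KO Input 30 of 35 were lowest in replicate 3, the shallowest library, and 31 were highest in replicate 1. In KO IP 29 were lowest in replicate 2. In WT, 24 were highest in WT IP replicate 2, 21 were lowest in WT IP replicate 3, and 22 were highest in WT Input replicate 1. The matching shares over all tested genes were not computed. The summed level of the 35 genes was 47900, 41600 and 34400 CPM in KO Input replicates 1, 2 and 3. It was 33300, 24900 and 29800 CPM in KO IP replicates 1, 2 and 3.

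Loss of Rpl3l was compared with WT within each fraction. In total heart RNA none of the 35 genes passed the threshold (edgeR quasi-likelihood test, Benjamini-Hochberg adjusted p under 0.05 over all 6596 genes), where 0.182% of all tested genes did, 0.152% higher and 0.0303% lower. DESeq2 and limma-voom also called none, and 1 subunit gene had an unadjusted p under 0.05, against 7.11% of all genes. Their median log2 fold change, KO minus WT, was 0.01 (all tested genes -0.01), with 20 genes above and 15 below 0. For 34 of 35 genes the 95% interval of the log2 fold change lay between -1 and 1, so a doubling or a halving lay outside it. The exception was Ndufs1, with -0.34 and an interval from -1.13 to 0.45. Its direction rested on KO Input replicate 3, which had 2 counts: it was 0.087 without that library and -0.69 without KO Input replicate 2.

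Ndufa8, an intermembrane-space subunit with twin cysteine motifs, had the lowest fold change in Input. It stood at 1182, 1159 and 944 CPM in WT Input and at 948, 924 and 472 CPM in KO Input replicates 1 to 3, a log2 fold change of -0.47 (SE 0.20; edgeR adjusted p = 0.639). The groups overlapped, since the highest KO library was above the lowest WT library. Ndufb7, another intermembrane-space subunit, had the highest fold change. It stood at 823, 626 and 900 CPM in WT Input and at 1116, 959 and 915 CPM in KO Input, a log2 fold change of 0.35 (SE 0.19; edgeR adjusted p = 0.724). It was the only subunit gene with all KO above all WT Input libraries, a pattern seen in 6.17% of tested genes, and none had all KO below all WT Input libraries (6.2% of tested genes). Ndufs6, a zinc-binding subunit of the N module, followed with 0.33 (SE 0.17; edgeR adjusted p = 0.721), and Ndufa10, a membrane-arm subunit with a nucleoside kinase-like fold, stood at 1029, 981 and 853 CPM in WT Input and at 899, 882 and 750 CPM in KO Input, a log2 fold change of -0.18 (SE 0.15; edgeR adjusted p = 0.856). Both genes had overlapping groups.

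Among ribosome-bound transcripts again none of the 35 genes passed in edgeR, DESeq2 or limma-voom, where 0.091% of all tested genes did in edgeR, 0.0303% higher and 0.0606% lower. Unadjusted, 2 genes had p under 0.05, against 5.2% of all genes. The median log2 fold change was -0.14 (all genes 0.00), 26 genes lay below 0 and 9 above, and all 35 intervals lay between -1 and 1. This median rested on the library in which the genes were lowest: without KO IP replicate 2 it was -0.01. With library totals in place of TMM scaling it was -0.03, where all tested genes had a median of 0.12. The median of the 35 genes thus lay below that of all genes under both scalings, without regard to length. A smooth trend of log2 fold change with transcript length over all tested genes had a median of -0.08 at these genes' lengths. After its subtraction the median of the 35 genes was -0.03, with 21 below and 14 above 0. All KO IP libraries were below all WT IP libraries for 4 genes, Ndufa6, Ndufa7, Ndufc1 and Ndufv3, where 5.44% of tested genes showed this, and above them for none (5.4% of tested genes).

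Ndufb2, a small single-span subunit of the distal arm, had the lowest fold change in IP. It stood at 727, 461 and 511 CPM in WT IP and at 273, 416 and 534 CPM in KO IP replicates 1 to 3, a log2 fold change of -0.47 (SE 0.20; edgeR adjusted p = 0.920). KO IP replicate 3 was above 2 of the WT libraries, so the groups overlapped. Ndufc1, a small single-span subunit of the proximal arm, stood at 1110, 1040 and 1065 CPM in WT IP and at 726, 807 and 957 CPM in KO IP, a log2 fold change of -0.37 (SE 0.16; edgeR adjusted p = 0.920). These groups did not overlap. The highest fold changes were those of Ndufa10 and of Ndufc2, a membrane-arm subunit. Ndufa10 stood at 802, 778 and 775 CPM in WT IP and at 894, 753 and 841 CPM in KO IP, a log2 fold change of 0.08 (SE 0.14; edgeR adjusted p = 0.988). Ndufc2 stood at 520, 586 and 512 CPM in WT IP and at 618, 493 and 597 CPM in KO IP, with 0.07 (SE 0.16; edgeR adjusted p = 0.988).

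**Figure D2:**
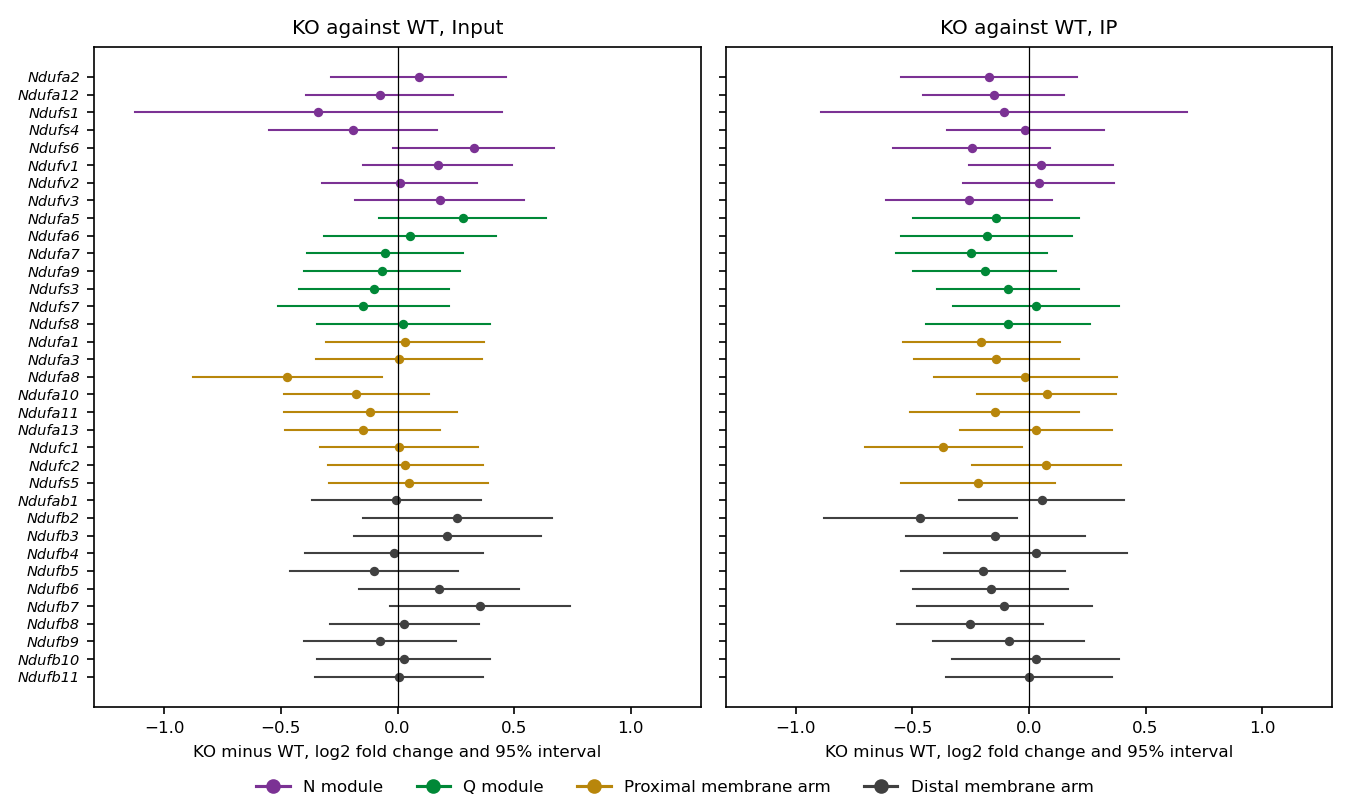
KO minus WT log2 fold changes (points) and 95% intervals (lines) of the 35 genes in Input and in IP, coloured by module of complex I. Ndufs1 has the widest interval in both panels, and the points of the IP panel lie slightly left of 0, with a median of -0.14.

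The genes include 6 core subunits of the matrix arm, most of which hold the flavin or iron-sulfur clusters. None passed in either fraction between genotypes. Ndufv1, which binds NADH and the flavin, had a KO minus WT log2 fold change of 0.17 (SE 0.16) in Input and 0.05 (SE 0.15) in IP. Ndufv2, a cluster-bearing partner of Ndufv1, had 0.01 (SE 0.16) and 0.04 (SE 0.16). Ndufs3, a structural core subunit of the Q module, had -0.10 (SE 0.16) and -0.09 (SE 0.15). Ndufs7 and Ndufs8, which carry the clusters nearest to ubiquinone, had -0.15 (SE 0.18) and 0.03 (SE 0.18) in Input, and 0.03 (SE 0.17) and -0.09 (SE 0.17) in IP. The 95% intervals of these 5 genes included 0 in both fractions, and Ndufs1, described above for Input, had -0.11 (SE 0.38) in IP.

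One subunit gene lies next to Rpl3l. Ndufb10 (GRCm38 chr17:24722060-24724478, minus strand, 4 exons), an intermembrane-space subunit of the distal arm, lies 3342 bases from Rpl3l (chr17:24727820-24736143). It stood at 1172, 1055 and 1058 CPM in WT Input and at 1283, 1106 and 949 CPM in KO Input. In IP it stood at 1186, 1559 and 1284 CPM in WT and at 1722, 1049 and 1346 CPM in KO. The genotypes overlapped in both fractions, and the log2 fold change was 0.03 in each (SE 0.18 and 0.17; edgeR adjusted p = 0.982 and 0.999).

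The larger differences were between fractions. In WT hearts 13 of the 35 genes (37.1%) were lower in ribosome-bound than in total RNA and 0 were higher, where 8.67% of all tested genes were lower and 5.37% higher (edgeR, adjusted p under 0.05). The median log2 fold change, IP minus Input, was -0.28 (all tested genes 0.02), and 30 of 35 genes lay below 0. In KO hearts 17 genes (48.6%) were lower and 0 higher, where 9.78% of all tested genes were lower and 6.64% higher. Here the median was -0.48 (all tested genes 0.01), and 31 genes lay below 0. These shares were not matched for level. The subunit genes had a median of 1095 CPM in WT Input, while every gene past the filter on low counts enters the share over all tested genes. Unadjusted, 16 genes in WT and 19 in KO had p under 0.05, against 27.8% and 29.4% of all tested genes; counting both directions, adjusted p was under 0.05 for 14% and 16.4% of them. The libraries of the fractions did not overlap, with IP lower, for 21 genes in WT (18.2% of all tested genes) and 17 in KO (15.6%). Ndufa9 and Ndufb10 were the 2 genes with all WT IP above all WT Input libraries (16.4% of tested genes), and neither passed the test. In KO no gene had all IP above all Input libraries (15.2% of tested genes).

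The WT and KO comparisons share no library, and 11 genes were lower in both: Ndufa1, Ndufa2, Ndufa3, Ndufa6, Ndufa7, Ndufb2, Ndufb4, Ndufb5, Ndufb9, Ndufb11 and Ndufc1. That is 84.6% of the WT calls and 64.7% of the KO calls. The matching overlap of calls over all tested genes is not given here. Ndufa8 and Ndufs1 passed in WT only, Ndufa5, Ndufb6, Ndufb7, Ndufb8, Ndufs6 and Ndufv3 in KO only, and 16 genes in neither. Across the 35 genes the log2 fold changes of WT and KO had a Pearson correlation of 0.847 (Spearman 0.804), against 0.658 (0.618) over all tested genes. Genes are not independent replicates, so this is a description. The number of calls in WT was sensitive to single libraries: leaving out any of the 6 gave 6 to 8 calls, and leaving out WT IP replicate 2 and WT Input replicate 3, the libraries richest in globin, gave 5. In KO it was 10 without KO IP replicate 2 and 10 without KO Input replicate 1, and 11 with library totals or with no count filter. Ndufa2, Ndufa3, Ndufb2, Ndufb4 and Ndufc1 passed under each of the 16 retested alternatives in both genotypes. Other calls held less often: in WT those of Ndufb5, Ndufb9, Ndufa7 and Ndufs1 held in 6, 7, 8 and 9 of the 16, and those of Ndufa6 and Ndufa8 in 10. In KO the calls of Ndufb6, Ndufb7, Ndufb8, Ndufb9 and Ndufs6 held in 7, 8, 8, 8 and 9 of the 16, and that of Ndufb5 in 10.

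**Figure D3:**
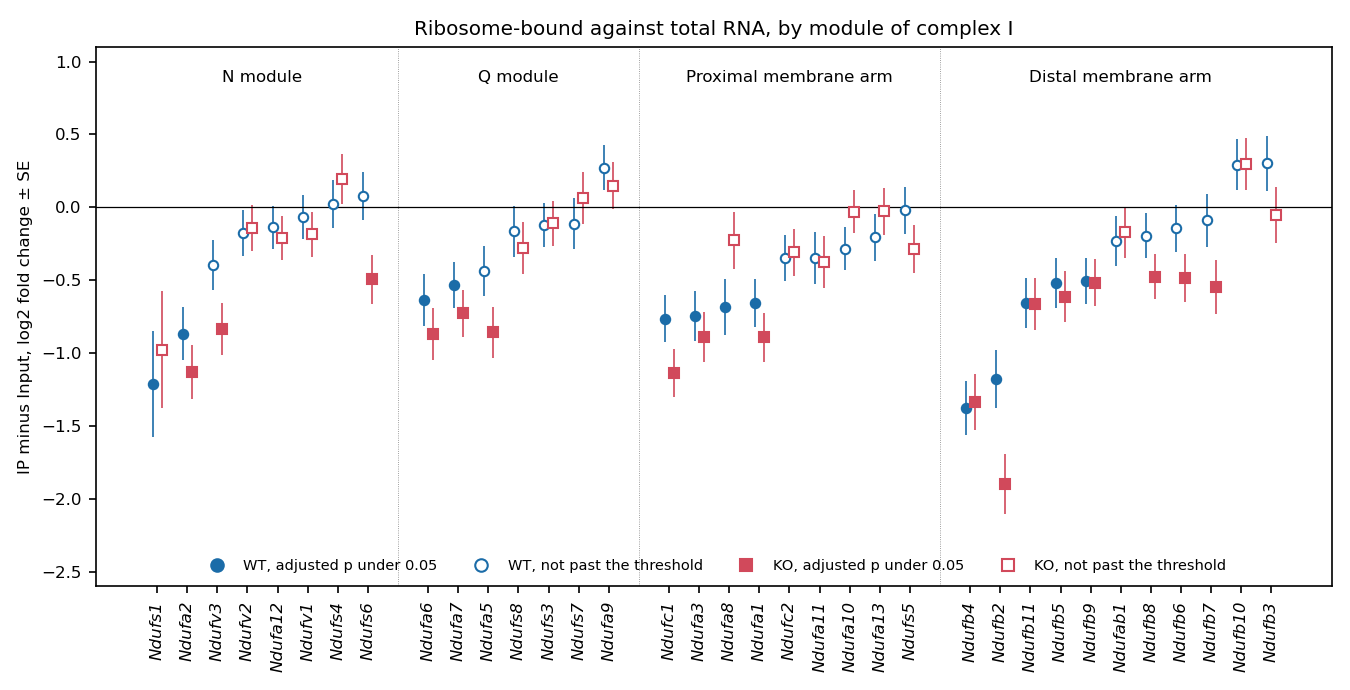
IP minus Input log2 fold change ± SE of each gene in WT (circles) and KO (squares), grouped by module and ordered by the WT value; filled symbols have adjusted p under 0.05. In the distal arm Ndufb4 (-1.38 and -1.33) and Ndufb2 (-1.18 and -1.90) are lowest, in the N module Ndufs1 (-1.21 and -0.98), and every filled symbol lies below 0.

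By position in the complex, the genes lower in IP were spread over all modules. Of all tested genes 8.67% were lower in WT and 9.78% in KO, and of those under 1000 bases 33.2% and 37.4%. In WT they were 2 of 8 N-module genes, 2 of 7 Q-module genes, 4 of 9 of the proximal membrane arm and 5 of 11 of the distal membrane arm, with medians of -0.16, -0.17, -0.35 and -0.23. In KO they were 3 of 8, 3 of 7, 3 of 9 and 8 of 11, with medians of -0.35, -0.28, -0.31 and -0.52. Of the 6 core genes 1 passed in WT and 0 in KO, and of the 29 accessory genes 12 and 17. The core genes had the longer transcripts, with a median of 1354 bases against 732 for the accessory genes, and a difference between these classes was not tested.

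In the distal arm Ndufb4 (chr16:37647170-37654453, minus strand, 3 exons) and Ndufb2 (chr6:39592574-39603382, plus strand, 4 exons) had the lowest values. Ndufb4, an accessory membrane subunit, stood at 683, 639 and 625 CPM in WT Input and at 253, 281 and 215 CPM in WT IP. In KO it stood at 765, 705 and 438 CPM in Input and at 306, 209 and 256 CPM in IP. Every IP library was below every Input library, and the mean IP level was 38.5% of Input in WT and 40.4% in KO. The log2 fold change was -1.38 (SE 0.19; edgeR adjusted p = 9.33e-06) in WT and -1.33 (SE 0.19; edgeR adjusted p = 2.14e-05) in KO.

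Ndufb2 stood at 1286, 1275 and 1283 CPM in WT Input and at 727, 461 and 511 CPM in WT IP. In KO it stood at 1698, 1614 and 1267 CPM in Input and at 273, 416 and 534 CPM in IP. The mean IP level was 44.2% of Input in WT and 26.7% in KO, again with no overlap. The log2 fold change was -1.18 (SE 0.20; edgeR adjusted p = 0.000164) in WT and -1.90 (SE 0.20; edgeR adjusted p = 3.88e-07) in KO. Ndufb9 stood at 2218, 2525 and 2301 CPM in WT Input against 1652, 1669 and 1639 CPM in WT IP, and at 2487, 2346 and 1841 CPM in KO Input against 1675, 1323 and 1679 CPM in KO IP. Its fractions did not overlap, and it fell by 0.51 on the log2 scale in WT and by 0.52 in KO. Ndufb5 and Ndufb11, single-span subunits, fell on the log2 scale by 0.52 and 0.66 in WT and by 0.61 and 0.66 in KO. Ndufb6, Ndufb7 and Ndufb8 passed in KO only, with log2 fold changes of -0.49, -0.55 and -0.48, against -0.14, -0.09 and -0.19 in WT. Ndufb3 had 0.30 and -0.06, Ndufab1, the mitochondrial acyl carrier protein, -0.23 and -0.17, and Ndufb10 0.29 and 0.30; none of these passed.

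**Figure D4:**
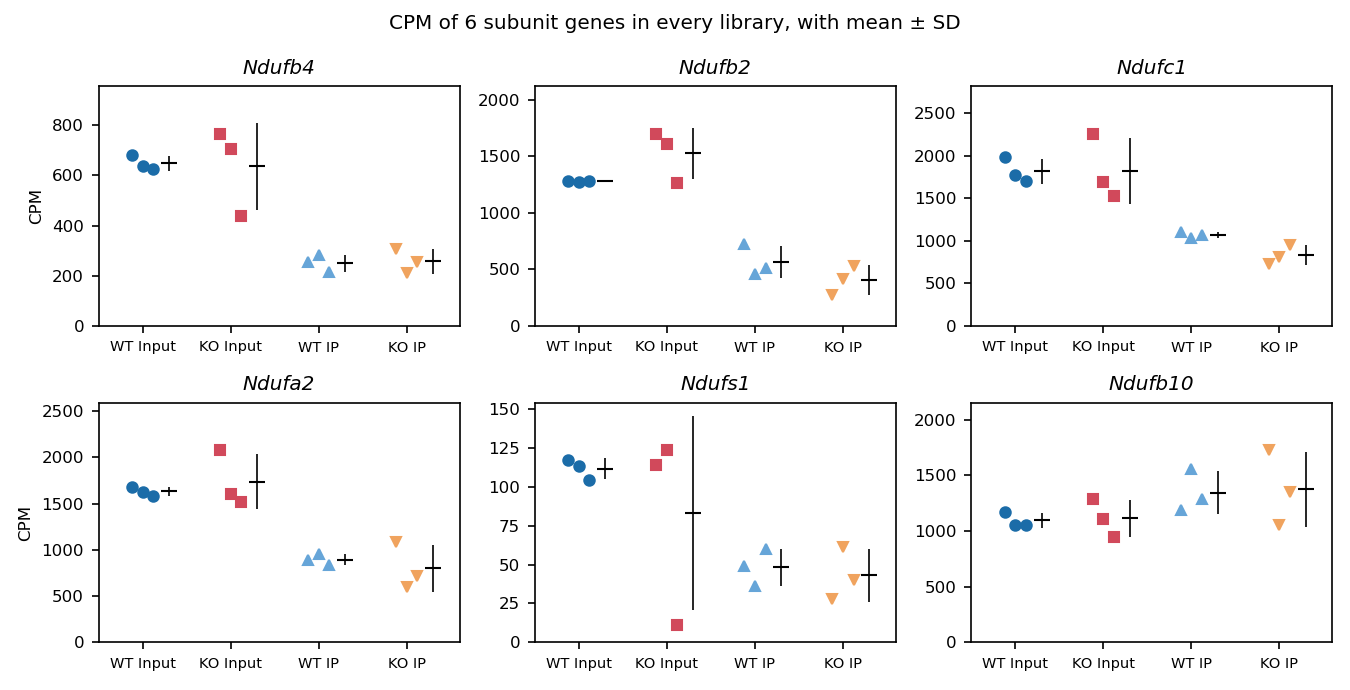
CPM of 6 subunit genes in each library, with group mean ± SD (n = 3) beside the points. For Ndufb4, Ndufb2, Ndufc1 and Ndufa2 every IP library lies below every Input library, for Ndufs1 KO Input replicate 3 (11.4 CPM) lies below every IP library, and Ndufb10 shows no such drop.

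In the proximal arm Ndufc1, Ndufa3 and Ndufa1 were lower in IP in both genotypes. Ndufc1 stood at 1984, 1773 and 1700 CPM in WT Input against 1110, 1040 and 1065 CPM in WT IP, and at 2258, 1691 and 1523 CPM in KO Input against 726, 807 and 957 CPM in KO IP. Its log2 fold changes were -0.76 (SE 0.16; edgeR adjusted p = 0.00211) and -1.14 (SE 0.17; edgeR adjusted p = 2.66e-05). In each genotype its fractions did not overlap. Ndufa3 stood at 2206, 1946 and 1948 CPM in WT Input against 1177, 1232 and 1234 CPM in WT IP, and at 2407, 2184 and 1517 CPM in KO Input against 1276, 893 and 1144 CPM in KO IP. Its log2 fold changes were -0.74 (SE 0.17; edgeR adjusted p = 0.00404) and -0.89 (SE 0.17; edgeR adjusted p = 0.000805). Ndufa1, an X-linked gene, stood at 1937, 1650 and 1904 CPM in WT Input against 1235, 1251 and 1000 CPM in WT IP, and at 2254, 1626 and 1733 CPM in KO Input against 1162, 903 and 967 CPM in KO IP. Every IP library of both genes was below every Input library of its genotype. The log2 fold changes of Ndufa1 were -0.65 (SE 0.16; edgeR adjusted p = 0.00782) and -0.89 (SE 0.17; edgeR adjusted p = 0.000505). Ndufa8 passed in WT only (-0.68, SE 0.19; edgeR adjusted p = 0.0171), with -0.23 in KO. Ndufc2 had -0.35 and -0.31, Ndufa11, a subunit with a Tim17-like fold, -0.35 and -0.38, Ndufa10 -0.28 and -0.03, Ndufa13, known also as GRIM-19, -0.21 and -0.03, and Ndufs5, an intermembrane-space subunit, -0.02 and -0.29, none of which passed.

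In the N module Ndufa2, an accessory subunit with a thioredoxin-like fold, was lower in IP in both genotypes. It stood at 1683, 1630 and 1585 CPM in WT Input against 891, 958 and 838 CPM in WT IP, and at 2075, 1610 and 1523 CPM in KO Input against 1087, 598 and 715 CPM in KO IP. Its log2 fold changes were -0.87 (SE 0.18; edgeR adjusted p = 0.00186) and -1.13 (SE 0.19; edgeR adjusted p = 0.000122). Ndufv3 had -0.40 in WT and fell by 0.83 in KO, and Ndufs6 had 0.08 in WT and fell by 0.49 in KO. Ndufs4 stood at 606, 607 and 527 CPM in WT Input against 568, 680 and 519 CPM in WT IP, and at 644, 412 and 466 CPM in KO Input against 625, 534 and 593 CPM in KO IP, overlapping in both. Ndufs4 had 0.02 and 0.20, and Ndufa12 had -0.14 and -0.21, without passing.

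Ndufs1 had the lowest fold change of the core genes in both genotypes. It stood at 117, 113 and 104 CPM in WT Input and at 48.8, 36.0 and 59.9 CPM in WT IP, a log2 fold change of -1.21 (SE 0.36; edgeR adjusted p = 0.0263). The WT fractions did not overlap, yet the adjusted p rose to 0.156 among the alternatives. In KO it stood at 114, 123 and 11.4 CPM in Input and at 28.0, 61.5 and 39.9 CPM in IP, so the fractions overlapped (-0.98, SE 0.40; edgeR adjusted p = 0.101). That overlap came from KO Input replicate 3 with its 2 counts: without this library the log2 fold change was -1.40 (edgeR adjusted p = 0.00383), the 1 of 16 alternatives in which Ndufs1 passed in KO, and without KO Input replicate 2 it was -0.63 (edgeR adjusted p = 0.452). Ndufs1 had 359 counts over all libraries. An exon of Eef1b2, on the opposite strand, overlaps Ndufs1 and had 1466 counts with IP minus Input log2 fold changes of -1.20 in WT and -0.82 in KO. The labels do not say whether counting used strand, so reads of the 2 genes may not be fully separated.

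The other core genes did not pass in either genotype. Ndufv1 stood at 917, 974 and 1001 CPM in WT Input against 860, 1042 and 865 CPM in WT IP, and at 986, 1175 and 1097 CPM in KO Input against 1059, 822 and 991 CPM in KO IP. Ndufv2 stood at 1014, 967 and 944 CPM against 899, 850 and 845 CPM in WT, and at 1150, 971 and 813 CPM against 1022, 736 and 918 CPM in KO. Of these genes Ndufv2 in WT had every IP library below every Input library, and the other fractions overlapped. Ndufs3 stood at 633, 629 and 628 CPM against 608, 606 and 523 CPM in WT, and at 636, 624 and 494 CPM against 614, 496 and 529 CPM in KO. Ndufs7 stood at 1221, 1216 and 1034 CPM against 1021, 1213 and 981 CPM in WT, and at 1158, 1106 and 864 CPM against 1384, 846 and 1064 CPM in KO. Ndufs3 had its WT fractions apart by a small margin, and those of Ndufs7 overlapped in both genotypes. Ndufs8 stood at 504, 547 and 497 CPM against 440, 499 and 444 CPM in WT, and at 628, 582 and 347 CPM against 434, 390 and 475 CPM in KO, overlapping in both. Ndufv1 had an IP minus Input log2 fold change of -0.06 (SE 0.15) in WT and -0.18 (SE 0.15) in KO, Ndufv2 -0.17 (SE 0.16) and -0.14 (SE 0.16), and Ndufs3 -0.12 (SE 0.15) and -0.11 (SE 0.15). Ndufs7 had -0.11 (SE 0.17) in WT and 0.07 (SE 0.18) in KO, and Ndufs8 -0.17 (SE 0.17) and -0.28 (SE 0.18). In the Q module the accessory genes Ndufa6, a LYR-motif subunit, and Ndufa7 were lower in both genotypes, with -0.63 and -0.53 in WT and -0.87 and -0.73 in KO. Ndufa5, which sits on the matrix arm, had -0.44 in WT (edgeR adjusted p = 0.0923) and fell by 0.86 in KO. Ndufa9 stood at 546, 508 and 470 CPM in WT Input against 577, 685 and 581 CPM in WT IP, and at 503, 451 and 506 CPM in KO Input against 632, 498 and 490 CPM in KO IP. Its WT fractions were apart with IP higher, and its log2 fold changes were 0.27 (SE 0.15; edgeR adjusted p = 0.253) and 0.15 (SE 0.16; edgeR adjusted p = 0.576).

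Short transcripts in general were lower in IP. Of the 671 tested genes with a transcript under 1000 bases, 33.2% were lower in IP in WT (median log2 fold change -0.50), against 5.88% of the 5920 longer genes (median 0.06). In KO these shares were 37.4% (median -0.55) and 6.6% (median 0.06). Of the 22 short subunit genes 10 were lower in WT (45.5%, median -0.39) and 14 in KO (63.6%, median -0.51). In each genotype they were called more often than short genes in general, while their median fell less. The shares were not matched for level. Of the 13 longer subunit genes 3 were lower in each genotype (23.1%), with medians of -0.21 and -0.17.

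A smooth trend of log2 fold change with transcript length over all tested genes ran at a median of -0.45 at the 35 genes' lengths in WT and -0.49 in KO. After subtraction of that trend the genes' median was 0.02 in WT, with 15 below and 20 above 0, and 0.06 in KO, with 14 below and 21 above 0. Single genes lay far from the trend. The distance was -0.98 in WT and -0.91 in KO for Ndufb4, -0.64 and -1.23 for Ndufb2, and -0.49 and -0.85 for Ndufc1. Ndufs1, at a length where the trend was near 0, had -1.22 and -0.98. Ndufb10 had 0.80 and 0.86, and Ndufb3 had 0.80 and 0.49. The principal transcript of Ndufb2 has 455 bases and its longest 4371, so its place on the length axis depends on the transcript chosen. Over all 6591 genes the Pearson correlation of log10 length and log2 fold change was 0.236 in WT (Spearman 0.295) and 0.306 in KO (0.338). Among the 35 genes it was 0.084 (0.153) in WT and 0.330 (0.410) in KO, all values sharing the same libraries. Without Ndufs1 it was 0.266 (0.253) and 0.444 (0.513). With coding length of the 35 genes in place of transcript length it was 0.141 (0.274) and 0.333 (0.487). With the longest transcript of each of the 35 genes it was -0.091 (0.071) and -0.019 (0.273). The size of the relation among these genes thus varied with 1 gene and with the measure of length. The sign of the Pearson value varied with the transcript chosen.

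**Figure D5:**
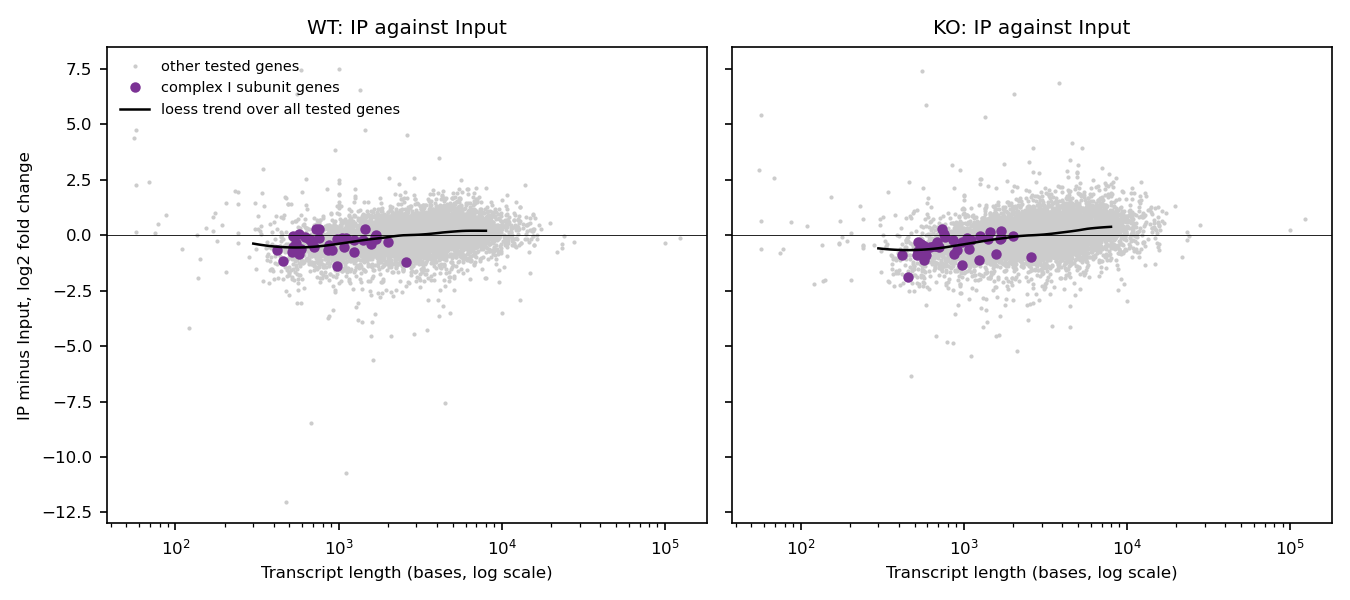
IP minus Input log2 fold change against transcript length (log scale) for all tested genes (grey), the 35 complex I genes (purple) and the loess trend over all tested genes (line), in WT and KO. The complex I genes scatter around the trend, at a median distance of 0.02 in WT and 0.06 in KO, with Ndufb4, Ndufb2 and Ndufs1 among the points furthest below it.

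The other respiratory complexes came from lists written for this work. Of all tested genes 8.67% were lower in IP in WT and 9.78% in KO. For tested genes under 1000 bases these shares were 33.2% and 37.4%, and for longer genes 5.88% and 6.6%. Of complex II genes 1 of 4 was lower in WT (Sdhb, an iron-sulfur subunit, by 0.48 on the log2 scale) and 0 in KO, where Sdha, the flavoprotein, was higher (0.57). Of complex III genes 2 of 9 were lower in WT and 4 of 9 in KO, led by the small subunits Uqcr10 (-0.74 and -1.04) and Uqcr11 (-0.64 and -1.06). Of complex IV genes 5 of 12 were lower in each genotype, among them Cox7a2 (-1.28 and -1.57) and Ndufa4, a complex IV subunit despite its name (-0.91 and -1.01). Of complex V genes 6 of 17 were lower in each, among them Atp5e (-1.28 and -1.73) and Usmg5 (-0.93 and -1.29), and Atp5l was higher in WT (0.66). The median log2 fold changes of complexes II, III, IV and V were 0.07, -0.27, -0.40 and -0.25 in WT and 0.20, -0.39, -0.43 and -0.14 in KO, beside -0.28 and -0.48 for complex I. Their median transcript lengths were 2066, 547, 632 and 625 bases, and differences between complexes were not tested.

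Of 19 complex I assembly factors 16 were tested, Ecsit was listed at 0 in all libraries, and 1 passed between fractions. This was Ndufaf8, with -0.94 (SE 0.21; edgeR adjusted p = 0.00287) in WT and -1.68 (SE 0.23; edgeR adjusted p = 8.51e-06) in KO. The assembly factors' medians were -0.07 and -0.04. Of 7 tested regulators of respiratory chain genes, Ppargc1b, a transcriptional coactivator, was higher in IP, at means of 35.5 against 14.4 CPM in WT (edgeR adjusted p = 0.0390) and 41.7 against 14.6 CPM in KO (edgeR adjusted p = 0.0278). Its Input levels lay near the level of 3 counts, which is 6.77 to 8.41 CPM in WT Input and 10.3 to 17.7 CPM in KO Input. None of the genes of these lists passed in KO against WT in either fraction or in the interaction.

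Some cell type markers moved with fraction as well. Of all tested genes 8.67% were lower in IP and 5.37% higher in WT, and 9.78% lower and 6.64% higher in KO. Of 9 tested cardiomyocyte markers 3 were lower in IP in WT, and 2 were lower and 2 higher in KO. The 5 atrial cardiomyocyte markers were all lower in IP in both genotypes (median log2 fold change -3.64 in WT and -3.56 in KO), and their summed level fell from 6760 to 8770 CPM in WT Input to 410 to 1120 CPM in WT IP, and from 8180 to 11800 CPM to 317 to 1030 CPM in KO. The adipocyte markers summed to 153 to 736 CPM in WT Input and 84.5 to 94.2 CPM in WT IP, with 2 of 3 tested genes lower, and 4 of their 6 genes, including Adipoq and Ucp1, were at 0 in some libraries. Endothelial markers summed to 4090 to 4530 CPM in WT Input and 2760 to 3370 CPM in WT IP, with 1 of 7 genes lower in WT and 4 of 7 in KO. Fibroblast markers, with Tcf21 at 0 throughout, summed to 1240 to 1390 CPM in WT Input and 1440 to 1750 CPM in WT IP. Of their 6 tested genes 0 passed in WT, and 1 was lower in KO (Col3a1, -0.69). Of the smooth muscle and pericyte, macrophage and erythroid markers, 0 passed between fractions in either genotype. In RNA from whole hearts, fewer cells of a type and less of an RNA per cell cannot be told apart. The part of these markers in the lower IP levels of the complex I genes was not tested.

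The difference between genotypes in the IP to Input ratio was tested directly as an interaction. None of the 35 genes passed in edgeR, DESeq2 or limma-voom, where 0.091% of all tested genes did in edgeR (0.0303% higher, 0.0606% lower), and 2 had an unadjusted p under 0.05, against 7.02% of all genes. The median was -0.12 (all genes 0.01), and 31 of 35 intervals lay between -1 and 1. The trend with transcript length had a median of -0.04 at these genes' lengths. After its subtraction the median was -0.07, with 20 genes negative and 15 positive. Ndufb2 had the lowest value, -0.72 (SE 0.28; unadjusted p = 0.0165, edgeR adjusted p = 0.619), and Ndufs6 followed with -0.57 (SE 0.23; unadjusted p = 0.022, edgeR adjusted p = 0.624). Ndufs6 stood at 1249, 1036 and 1229 CPM in WT Input and 1258, 1264 and 1187 CPM in WT IP, and at 1615, 1548 and 1233 CPM in KO Input and 1143, 805 and 1187 CPM in KO IP. The fractions overlapped in WT and did not overlap in KO. Ndufa8 had the highest value, 0.46 (SE 0.27; edgeR adjusted p = 0.782), and Ndufa10 had 0.25 (SE 0.21; edgeR adjusted p = 0.869). The 8 genes that passed between fractions in 1 genotype only are thus not shown to differ between genotypes.

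Near-identical copies could share reads with some of these genes. Of 15 annotated loci with at least 90% identity to a subunit transcript, belonging to 12 genes, 2 had more than 3 counts. Gm4459, a processed pseudogene of Ndufab1 (99.8% identity), had 1200 counts beside 7700 for Ndufab1, and Ndufs6b had 81 beside 6411 for Ndufs6. Ndufab1 alone stood at a mean of 1568 CPM in WT Input and 1338 CPM in WT IP. Summed with Gm4459 it stood at 1659 ± 212 CPM (SD, n = 3) in WT Input and 1642 ± 106 CPM (SD, n = 3) in WT IP, and at 1702 ± 265 and 1653 ± 354 CPM in KO. The log2 ratio of the summed means was -0.01 in WT and -0.04 in KO, nearer to 0 than the -0.23 and -0.17 of Ndufab1 alone. The counts of Ndufab1 are therefore uncertain.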

How the data were processed

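Deposited files hold 1 whole-number count per gene and library. The submitters' processing notes name minimap2 2.14, DESeq2 1.34.0 and GRCm38 with no roles; the counting tool and annotation release are not given in the sources used here. Gene IDs were matched without version to GENCODE M21 (55141 of 55401; 35 of 35 subunit genes), which gave names, lengths and coordinates. Counts were tested with edgeR 4.0.16 (limma 3.58.1, R 4.3.3): filterByExpr (minimum count 10, total 15), TMM factors, 1 mean per group over all 12 libraries (common dispersion 0.0333), and 5 contrasts adjusted by Benjamini and Hochberg over 6596 genes with a threshold of 0.05. The SE is the log2 fold change divided by the square root of F, and CPM values are TMM-scaled. With 3 libraries against 3, an exact rank test cannot go below p = 0.1, so calls rest on the edgeR model. Transcript length is that of the shortest best-supported principal transcript; the length trend is a loess fit (span 0.5). Near-identical loci were sought with blastn 2.17.0 (at least 200 bases and 80% of the locus). Alternatives included DESeq2 1.42.0 and limma-voom.

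The subunit genes and all lists were chosen with earlier results of these data known. Genes given in full were, per contrast, up to 5 called genes in each direction with the smallest p or, with none called, the 2 with the smallest p in each direction, the 3 highest and 3 lowest per kb in WT Input, the 6 core genes, and up to 3 called genes of each other list. Replicate numbers were not treated as pairs.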

Additional observations from a re-analysis of the deposited data

Results flagged for a closer look

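Counts were found at 3 loci named or built like complex I subunit genes that the comparisons leave out. Ndufb1-ps (chr12:101968090-101977068), which carries the name of a subunit gene but is annotated as a noncoding bidirectional-promoter RNA, had 6389 counts over the 12 libraries. It stood at 1650, 1430 and 1470 CPM in WT Input, 1150, 1120 and 1150 CPM in WT IP, 1970, 1070 and 1180 CPM in KO Input and 948, 869 and 929 CPM in KO IP. Its IP minus Input log2 fold change was -0.42 (SE 0.18; edgeR adjusted p = 0.122) in WT and -0.62 (SE 0.18; edgeR adjusted p = 0.0191) in KO. Gm4459 (chr7:139659688-139660155), the processed pseudogene of Ndufab1, had 1200 counts. It stood at 97.2, 78.9 and 97.4 CPM in WT Input and 289, 351 and 273 CPM in WT IP, and at 156, 88.6 and 187 CPM in KO Input and 315, 198 and 269 CPM in KO IP. It was higher in IP in both genotypes, by 1.74 (SE 0.23; edgeR adjusted p = 6.79e-06) in WT and 0.87 (SE 0.24; edgeR adjusted p = 0.0115) in KO, while no complex I subunit gene was higher in IP. Ndufs6b (chr7:81161397-81161744), a processed pseudogene of Ndufs6, had 81 counts, between 2 and 14 per library.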

How the results depend on the processing

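Each comparison was refitted with other scalings, filters, tests and library sets, plus 2 alternatives chosen after seeing the data (the longest transcript, and leaving out WT IP replicate 2 and WT Input replicate 3 together). No alternative called a subunit gene in KO against WT in Input, in KO against WT in IP or in the interaction, or as higher in IP. The 13 genes lower in IP in WT became 6 to 8 when 1 library was left out and 5 without the 2 libraries rich in globin. Under the 9 other refits with calls the number in WT ran from 9 to 17. The 17 genes lower in IP in KO became 11 with library totals, 11 with no count filter, and 10 to 19 when 1 library was left out. The median of -0.28 in WT was -0.33 to -0.23 with 1 library left out, 0.016 after subtraction of the length trend and 0.025 with the longest transcript. The median of -0.48 in KO was -0.55 to -0.31, 0.065 and 0.080. With the length trend subtracted Ndufb9 turned to 0.012 in WT (0.019 with the longest transcript), and in KO Ndufb7, Ndufb9 and Ndufs6 turned to 0.074, 0.065 and 0.15 (0.080, 0.087 and 0.089); 3 further called genes turned as well, Ndufa7 to 0.016 in WT and Ndufb6 and Ndufb8 to 0.12 each in KO. The subtraction itself moves these short genes up. With 1 library left out, the KO minus WT median ran from -0.14 to 0.12 in Input and from -0.18 to -0.01 in IP, and the interaction median from -0.20 to -0.0046. Under scaling by library totals all tested genes had a median of 0.12 in KO against WT in IP and of 0.15 in IP against Input in KO. Replicate numbers gave no sign of paired libraries. The 18 correlations of deviations between same-numbered libraries ran from -0.12 to 0.04. A library matched its own number best in 3 of 36 cases. Correlations between libraries of different numbers were small as well, at most 0.12, so the check cannot exclude pairing. With the replicate block the calls were 12 in WT and 16 in KO, and 0 in the other comparisons. In KO Input replicate 3, the shallowest library, Ndufs1 rests on 2 counts.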
